A study of Mus musculus with 16 samples.

Results

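Outside 3 repeat loci, 227 short stretches of the mouse autosomes gathered dense clusters of DNA break ends in at least 1 of 16 libraries. They were found by merging the deposited clusters of at least 100 ends on chromosomes 1 to 19, in any library, whenever they lay within 1 kb of each other. That gave 241 merged regions from 3310 clusters, of 5834321 clusters in all on these chromosomes. The 14 regions at repeat loci of chromosomes 2, 9 and 17 were left out. Together the 227 regions covered 25357 bases, or 0.00105% of the sequence considered, and held 12.3 ± 2.69% of a library's ends (SD, n = 16). Since the regions were chosen by their counts, their levels are given as descriptions, without a test. A region of 2 bases can be a member, and so can one of 3787.

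AB22 is a mouse cell line of malignant mesothelioma, a cancer of the membrane around lungs and abdomen. All cells carried a doxycycline-inducible hairpin vector and were puromycin-selected, kept in doxycycline and at low oxygen, and synchronised in G1. The hairpin was a control (shCTRL) or one against HMGB1 (shHMGB1), an abundant chromatin protein that bends DNA. Gamma rays from a caesium source were given at 3, 5 or 10 Gy, beside unirradiated cells (0 Gy), and each of the 8 combinations had 2 libraries that the labels call biological replicates. The labels do not say whether these came from separate cultures, so p-values measure the spread between these libraries, which may be technical. Each hairpin line is 1 transduced population.

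BLISS labels double-strand breaks in fixed cells: free DNA ends are blunted, an adapter is ligated to them in place, and the DNA beside it is transcribed and sequenced. Small nucleolar RNAs (snoRNAs) are short RNAs cut from the introns of host genes, and most guide chemical changes on ribosomal RNA. The box C/D kind is framed by a short C box near its 5′ end and a D box near its 3′ end, and guides methylation. The related scaRNAs act on spliceosomal RNAs in Cajal bodies. The files hold break ends and no RNA level, so neither the identity of the cells nor the knockdown can be checked in them. The labels name the molecule as total RNA and the library source as transcriptomic, while the protocol describes RNA transcribed in vitro from adapter-ligated genomic DNA. The counts were taken as break ends on the protocol's word. Whether cellular RNA added to them, at snoRNA genes, Malat1 or Neat1 or elsewhere, was not tested.

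Among snoRNA genes with many ends, 8 are shown because the position of the ends inside them was the most regular feature of the dense regions. Each sequence is the GENCODE M21 gene (build GRCm38, mm10) read 5′ to 3′. Capitals mark up to 11 bases centred on the position with the most ends, counted over all 16 libraries. The first 4 genes lie on the plus strand of their chromosome and the last 4 on the minus strand.
Snord99, at chr4:132310691-132310764, plus strand, within Snhg12: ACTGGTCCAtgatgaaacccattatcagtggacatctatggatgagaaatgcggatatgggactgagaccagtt
Gm25789, at chr1:161038308-161038383, plus strand, within Gas5: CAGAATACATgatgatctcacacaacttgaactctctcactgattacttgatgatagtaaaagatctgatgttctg
Gm23969, at chr2:26911261-26911334, plus strand, within Rpl7a: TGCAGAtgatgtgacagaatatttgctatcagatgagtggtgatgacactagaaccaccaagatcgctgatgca
Snord65, at chr11:62604515-62604586, plus strand: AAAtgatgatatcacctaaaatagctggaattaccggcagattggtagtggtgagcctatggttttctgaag
Snord87, at chr1:9942463-9942549, minus strand, within Snhg6: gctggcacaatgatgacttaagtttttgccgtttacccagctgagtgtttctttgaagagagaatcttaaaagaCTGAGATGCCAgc
Snord83b, at chr15:80078498-80078591, minus strand, within Rpl3: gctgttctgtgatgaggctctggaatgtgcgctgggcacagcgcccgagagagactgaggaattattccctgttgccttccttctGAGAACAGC
Snord82, at chr1:86356261-86356330, minus strand, within Ncl: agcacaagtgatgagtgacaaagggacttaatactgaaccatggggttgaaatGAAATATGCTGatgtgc
Snord35a, at chr7:45126346-45126435, minus strand, within Rpl13a: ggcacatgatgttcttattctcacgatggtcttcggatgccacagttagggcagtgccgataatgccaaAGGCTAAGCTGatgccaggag

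Among the genes shown, the densest position lay toward the 5′ end on the plus strand and toward the 3′ end on the minus strand. In both cases that is the end with the lower chromosome coordinate. Snord87 held 91.4% of its 19451 ends at 1 position, 7 bases from its 3′ end. Snord83b held 80.99% of its 11286 ends at 1 position, 3 bases from its 3′ end. On the plus strand Gm25789 held 49.9% of 10585 ends at 1 position, 4 bases from its 5′ end, and Gm23969 held 32.2% of 9131 on its first base. In Snord65 the densest position lay just outside the gene, 3 bases upstream of its first base.

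This one-sided pattern held across the class. Dense regions overlapped 68 snoRNA and scaRNA genes, and each gene was divided by coordinate into 3 equal parts, with a margin of 10 bases on either side counted to the outer parts. Of the 40 genes on the plus strand, 36 had over 50% of their ends in the low-coordinate part, and 0 had it in the high-coordinate part. Of the 28 on the minus strand the counts were 24 and 1. The median share in the low-coordinate part was 89.2% on the plus strand and 95.9% on the minus strand. The median share in the high-coordinate part was 0.394% and 0.233%. The densest position had a median distance of 2 bases from the 5′ end on the plus strand and of 5 bases from the 3′ end on the minus strand. In single libraries the pooled share of the low part ran from 73.6% to 84.7% on the plus strand and from 86.4% to 93.3% on the minus strand. The densest position lay within 10 bases of the low-coordinate end in 29 of the 40 and 18 of the 28 genes, and within 10 bases of the other end in 0. Snord80 of Gas5, on the plus strand, had it in mid-gene, 35 bases from the 5′ end, and is not among the sequences printed although it held 8863 ends. Genes with under 50% in the low part included both copies of Rnu3a (U3, which acts in ribosomal RNA cleavage) and the box H/ACA genes Snora73a and Snora73b.

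The share of the low part was as one-sided in snoRNA and scaRNA genes outside the dense regions that had at least 50 ends. There 91 of 98 genes on the plus strand and 54 of 57 on the minus strand had over 50% of their ends in the low-coordinate part. The densest position lay within 10 bases of the low-coordinate end in 80 of the 98 but in 21 of the 57. Its median distance was 1 base from the 5′ end on the plus strand and 14 bases from the 3′ end on the minus strand. These genes were not chosen by the threshold of 100. The files keep no strand for an end, and the sources used here do not say whether the listed position is the first base of the read or the lowest coordinate of its alignment. On which side of a snoRNA gene the break itself lay is therefore not determined by these values, and the cause of the pattern was not tested.

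**Figure D1:**
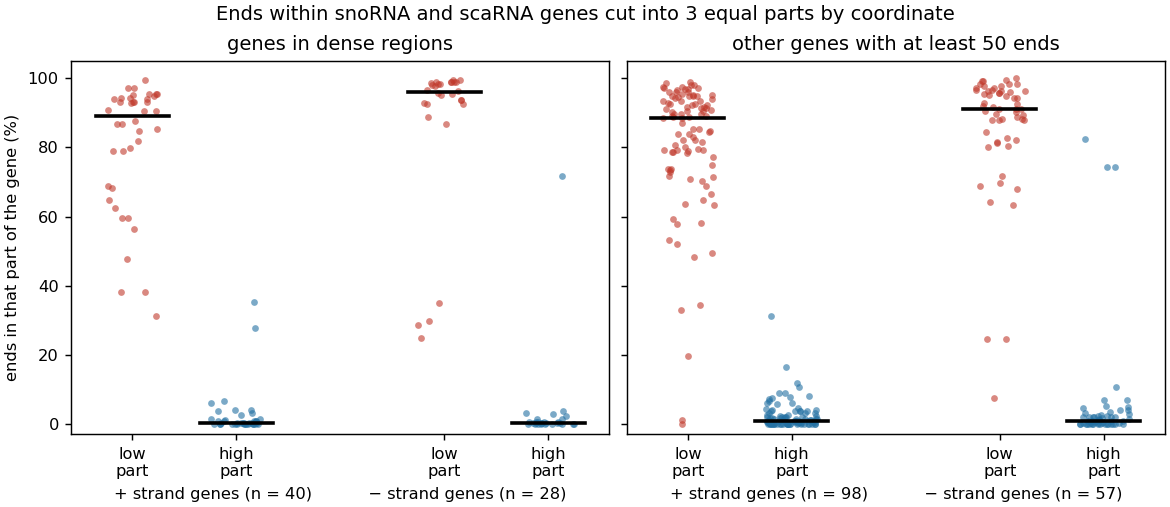
Share of the ends (%) in the low-coordinate and the high-coordinate part (of 3 equal parts) of each snoRNA or scaRNA gene, by strand, for genes in dense regions and for other genes with at least 50 ends. Each point is 1 gene with all 16 libraries summed and black bars are medians, which stand at 89.2% and 95.9% for the low part in dense regions on the plus and minus strand.

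By annotation the regions fell into 6 classes. Those overlapping a snoRNA or scaRNA gene numbered 45, or 19.8% of the regions, while these genes cover 0.00712% of the bases. Other small RNA or ribosomal RNA genes held 8 regions and 0.0208% of the bases. Another 6 regions lay within 1 kb of a protein-coding start, 5 in other exons, 72 in introns and 91 between genes. Introns cover 42.7% and intergenic sequence 51.03% of the bases. The overlap with annotated repeats was not analysed here. The regions lay on all 19 autosomes, from 7 on chromosomes 15 and 18 to 21 on chromosome 2.

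Widths ran from 1 to 3787 bases with a median of 9. Up to 20 bases wide were 137 regions, 70 spanned 21 to 200 bases and 20 were wider. In 89 regions over 90% of all ends sat at a single position, and in 146 over 50% did. The narrow and the wide regions differed in annotation. All 53 regions at small RNA genes were wider than 20 bases, while 132 of the 137 narrow regions were intronic or intergenic. Within the narrow ones 43.8% were intronic and 52.6% intergenic, close to the share of the bases that each class covers.

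**Figure D2:**
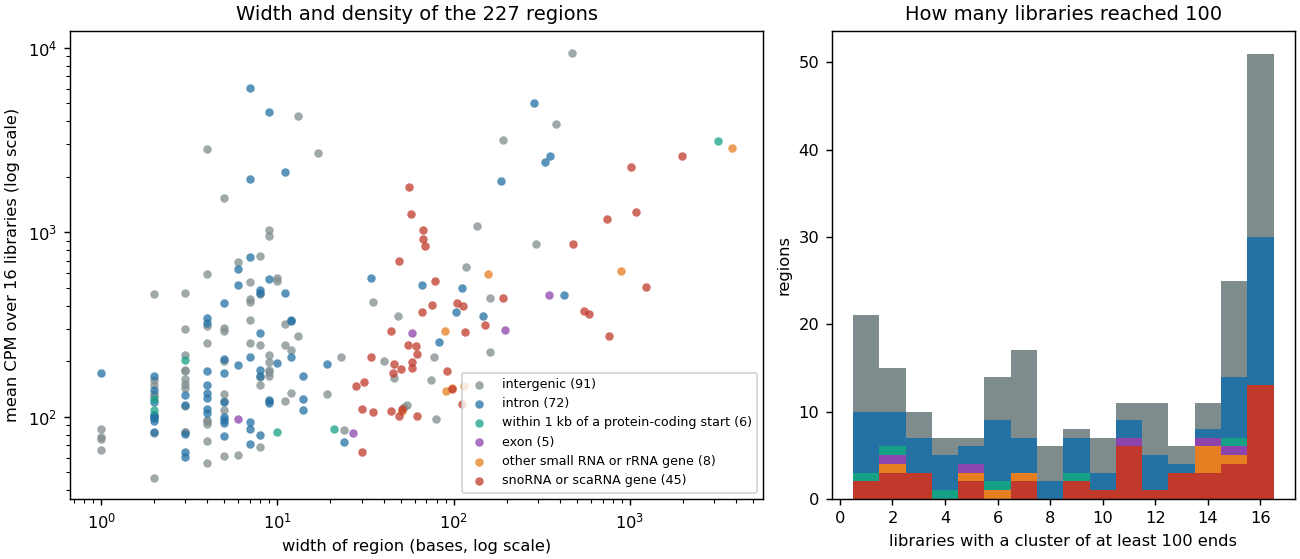
Left, width in bases against mean level in CPM (ends scaled to a library total of 1000000) over 16 libraries for the 227 regions, both on log scales, coloured by annotation class. Right, number of regions by how many libraries had a cluster of at least 100 ends there, in the same colours, with 51 regions at 16 libraries and 21 at 1.

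Levels are given in CPM, the ends in a region scaled to a library total of 1000000 ends on chromosomes 1 to 19, X and Y. They ran from 46.8 to 9410 CPM with a median of 199, and 26 regions averaged over 1000. The 12 densest held 40.7% of the regions' summed level. Every region had ends in every library, with counts from 5 to 11854.

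The snoRNA regions with the highest mean levels lay in noncoding host genes. The Snhg1 region (chr19:8723992-8725960) spanned 1969 bases over 8 small RNA genes. It held 1592 to 5174 CPM in shCTRL with a median of 2444, and 1591 to 3401 in shHMGB1 with a median of 2005 (n = 8 each). The Gas5 host held 2 regions. The larger of them by level, at Snord80, Snord47 and Gm25789, held 1617 to 4953 CPM in shCTRL (median 2382) and 1201 to 2589 in shHMGB1 (median 1730). The Snhg6 region, 56 bases at Snord87 (chr1:9942461-9942516), held 776 to 3499 CPM in shCTRL (median 1482) and 1208 to 2689 in shHMGB1 (median 1492). In all 3 the ranges of the lines overlapped.

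Other snoRNA hosts included genes of ribosomal proteins. Rpl13a, a protein of the large ribosomal subunit with Snord32a to Snord35a in its introns, averaged 1286 ± 722 CPM (SD, n = 16). Snhg12 at Snord99 averaged 1257 ± 609, Rpl3 at Snord83b 1032 ± 266 and Rpl7a at Gm23969 915 ± 432. Ncl, which encodes nucleolin of the nucleolus, averaged 695 ± 385 CPM at Snord82. Of 41 snoRNA host genes on a list of hosts, dense regions overlapped 21. That list was drawn up with earlier results of these data known, so the number is a description. By gene type dense regions overlapped 65 of 1442 snoRNA genes and 3 of 46 scaRNA genes, beside 111 of 20807 protein-coding genes (0.533%) and 14 of 5209 lincRNA genes. A search for TGATGA within the first 20 bases and CTGA within the last 20 (gene strand only; a CTGATGA would hold both motifs overlapping, but the windows are apart in genes of 40 bases or more) found both in 60% of those 65 snoRNA genes and in 21.3% of all 1442. Genes of at most 100 bases made up 76.9% of the 65 and 31.3% of all.

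The other small RNA class was led by Malat1, a long noncoding RNA of nuclear speckles, whose wide region (chr19:5798782-5802568) also overlaps Gm27694. It averaged 2860 ± 706 CPM (SD, n = 16) and no position held over 11.7% of its ends. A second Malat1 region in exonic sequence averaged 454 ± 140. Gm24265 and Gm24407, a pair of snRNA genes on chromosome 5, shared a region at 617 ± 199 CPM. Rn7sk, the RNA that holds back the elongation factor P-TEFb, averaged 137 ± 43.8, and Rnu11, an RNA of the minor spliceosome, 108 ± 46.1. Reads of multicopy small RNA genes cannot be assigned to 1 copy with certainty, so values at such genes are uncertain. Neat1, the long noncoding RNA that builds paraspeckles, had a region of 27 bases with 77.8% of its ends at 1 position. That position is central in this stretch of Neat1 (GENCODE M21, GRCm38, chr19:5845021-5845121, minus strand, gene orientation), with 11 bases in capitals:
Neat1: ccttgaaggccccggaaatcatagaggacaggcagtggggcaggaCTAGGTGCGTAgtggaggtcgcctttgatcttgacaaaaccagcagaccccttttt

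Narrow sites in introns and between genes made up most of the list, and several rivalled the widest regions in level. A site of 7 bases in an intron of Slc36a1, a proton-coupled amino acid transporter (chr11:55220247-55220253), averaged 6021 ± 2551 CPM with 97.9% of its ends at 1 position. One of 9 bases in an intron of Fam163b (chr2:27127102-27127110) averaged 4456 ± 1290 with 94.7% at 1 position. Between genes, a site of 13 bases at chr5:92994432-92994444, nearest to Shroom3, averaged 4251 ± 1792, and one of 17 bases at chr10:58706743-58706759, nearest to Gm17542, 2679 ± 1009 (SD, n = 16 for each). The most filled position was the same in all 16 libraries for 127 of the 137 narrow regions, and for 171 of all 227. The authors' removal of duplicates by molecular identifiers came before these counts, so the ends at 1 position were counted as different molecules.

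The smallest library, shCTRL 3 Gy replicate 2, stood apart at these sites. It held 14411 CPM at the Slc36a1 site, where the other 7 shCTRL libraries held up to 7668, and 10135 at the site near Shroom3, where the others held up to 5669. It had 131430 ends against 392139 to 1010888 in the other libraries, and 19.4% of its ends in dense regions against at most 15.1% elsewhere. Without it the share of ends in dense regions averaged 11.9%.

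Among the wide regions outside small RNA genes, the densest was intergenic (chr3:5860337-5860803, nearest to the coding gene Gm8797 at 109042 bases). It spanned 467 bases and averaged 9410 ± 2742 CPM, with no position above 5.96% of its ends. An intergenic region near Axin2 (chr11:109011645-109012023) averaged 3856 ± 1359. In Chl1, a neural cell adhesion gene, a region of 185 intronic bases averaged 1892 ± 299 CPM, and its coefficient of variation over libraries, 15.8%, was the lowest of the 227.

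A further 3 wide regions were singled out after their values were seen. They lay in the noncoding gene Gm33838 (chr9:35305213-35305499, 5001 ± 952 CPM), between genes near Rab10 (chr12:3109865-3110054, 3148 ± 862) and at Gm21738 (chr14:19415702-19418858, 3126 ± 684; SD, n = 16). Their levels followed those of the left-out repeat loci over the 16 libraries, with Pearson r on log2 levels of 0.85, 0.81 and 0.79. These libraries share the totals both levels are divided by. The next highest r of the 227 was 0.40 and the median −0.42. In irradiated libraries they averaged 5259 ± 946, 3318 ± 907 and 3279 ± 705 CPM (n = 12) and at 0 Gy 4230 ± 433, 2641 ± 491 and 2668 ± 379 (n = 4), while most regions were lower after irradiation. None of the 3 differences passed the test (edgeR quasi-likelihood adjusted p = 0.914, 0.901 and 0.918).

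The threshold of 100 set which regions were listed. Just inside it were sites in Tmcc3, with a largest cluster of 100 ends, in Ltbp2 and near Esp24 with 101, and near Mapk4 and near Ttll7 with 102. Just under it were Rpl4 at Gm22455 with 99 and sites near Bod1, in Taco1, near Kynu and at Zfas1 with Snord12 with 98 each. A cluster of 100 is reached more easily in a larger library. Regions that reached it in shHMGB1 libraries alone numbered 67 and in shCTRL libraries alone 4. shHMGB1 libraries held more ends, so these counts do not compare the lines.

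Every region had ends in all 16 libraries, while clusters of 100 ends and levels varied between libraries. A cluster of at least 100 ends stood in all 16 libraries for 51 regions, in 15 for 25, in 8 to 14 for 60, in 2 to 7 for 70 and in a single library for 21. Of the last group 18 had it in shHMGB1. The largest clusters among them were 139 ends at Scarna17, 124 at Snord45b in Rabggtb and 123 at a site near Nkain3. At least 1 group had a cluster of 100 in both of its replicates for 181 of the 227 regions. Over the regions the median coefficient of variation across libraries was 36.6%, and the median ratio between replicates of a group was 1.30. Spearman's rho over the 227 regions was 0.82 to 0.95 between replicates (8 pairs, median 0.92), 0.79 to 0.98 between doses of a line (48 pairs, median 0.92) and 0.72 to 0.96 between lines (64 pairs, median 0.90). These are correlations over regions, which are not independent replicates and were chosen for their level.

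For the comparison of lines, all 227 regions and 23659 tiles of 100 kb elsewhere were tested in 1 fit over the 8 groups. shHMGB1 was averaged over its doses and set against shCTRL (edgeR quasi-likelihood test, Benjamini-Hochberg adjusted over all 23886). Of the regions 3 fell in shHMGB1 and 0 rose, or 1.32%, where 0.0419% of all features passed. At an unadjusted p under 0.05 there were 62 regions (27.3%), against 8.65% of all features, and 45 to 96 with single libraries left out, the 96 without shHMGB1 3 Gy replicate 1. The regions were chosen on the counts tested here, so nothing is read from these shares.

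The Neat1 site fell most. It held 72.2 to 162 CPM in the 8 shCTRL libraries with a median of 129, and 10.7 to 65.1 in the 8 shHMGB1 libraries with a median of 46.8. Every shHMGB1 library lay below every shCTRL library. The log2 change was −1.58 ± 0.20 (SE; edgeR adjusted p = 2.02e-09). The site was listed only because its cluster reached 100 ends in 2 shCTRL libraries, 3 Gy replicate 1 and 10 Gy replicate 2, so this test used values that chose it. Without those 2 libraries, a fit added after the data were seen, the change was −1.42 ± 0.24 (edgeR adjusted p = 0.000161), with the other 6 shCTRL libraries at 72.2 to 162 CPM. With at most 3 ends counted per position the log2 change was −1.15 and the adjusted p 0.0648, and with each position counted once −1.17 and 0.102. Counts limited per position also vary with library size, and shHMGB1 libraries held more ends.

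The other pair were sites of 3 and 2 bases. The site 10 bases from Bmp7, a growth factor gene (chr2:172940331-172940333), held 57.9 to 491 CPM in shCTRL (median 272) and 53.4 to 279 in shHMGB1 (median 137), a log2 change of −1.06 ± 0.22 (edgeR adjusted p = 0.0106). The intergenic site nearest to Haao, a gene of tryptophan breakdown (chr17:83998120-83998121), held 41.4 to 297 CPM in shCTRL (median 164) and 30.3 to 153 in shHMGB1 (median 93.9), a change of −0.99 ± 0.21 (adjusted p = 0.0192). The lines overlapped at both. At both, replicate 1 held more than replicate 2 in 7 of 8 groups, with 269 ± 113 against 137 ± 104 CPM near Bmp7 and 163 ± 44.96 against 95.8 ± 88.8 near Haao (SD, n = 8 each). With a replicate block the changes were −1.09 and −1.08 (edgeR adjusted p = 0.000773 for both), and with a block within each line −1.09 and −1.11 (9.96e-06 for both). DESeq2 gave changes of −1.08 and −1.02 that did not pass (adjusted p = 0.135 and 0.175). Without shCTRL 10 Gy replicate 1 the edgeR changes were −0.67 and −0.56 (adjusted p = 0.359 and 0.421).

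**Figure D3:**
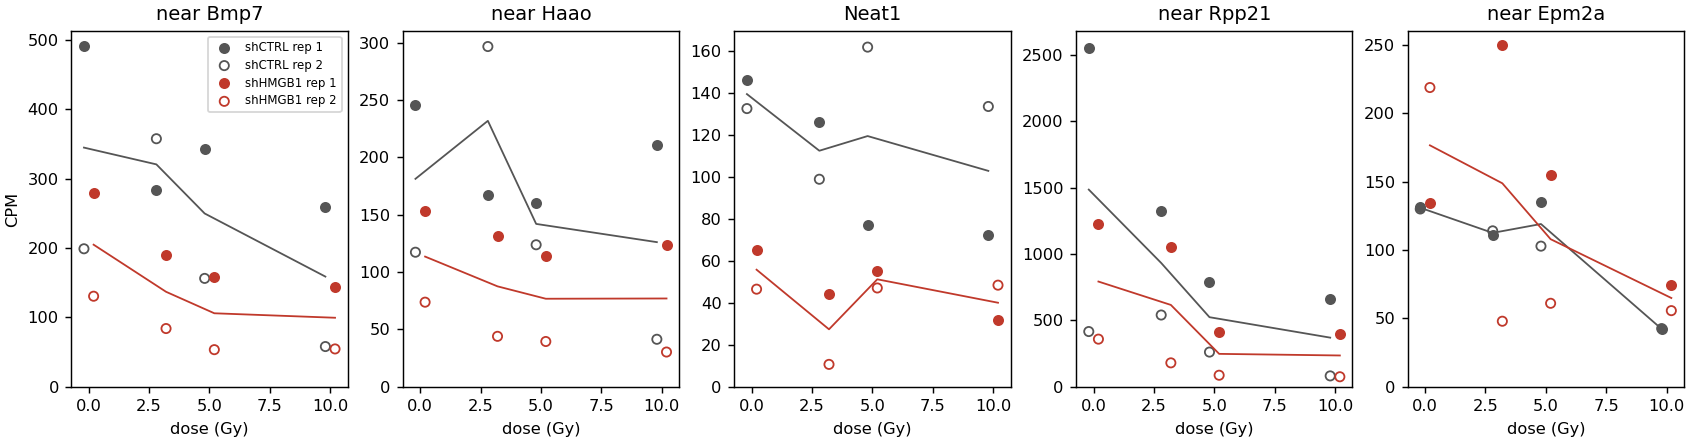
CPM at the 5 regions that passed a test, by dose in Gy, with filled points for replicate 1, open points for replicate 2 and lines through group means, in grey for shCTRL and red for shHMGB1. At the Neat1 site all 8 shHMGB1 libraries lie at or below 65.1 CPM and all 8 shCTRL libraries at or above 72.2.

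Away from these calls, the fitted change between lines is given by class as a description. The regions were chosen on the counts tested, 67 of them through shHMGB1 libraries alone and 4 through shCTRL libraries alone. The class medians and the gaps between them therefore draw on values that chose the regions, and nothing is read from them about the lines. The median log2 change of the 45 snoRNA and scaRNA regions was −0.49, with 2 above 0, and 0 passed. Gas5 at Snord80 stood at −0.68 ± 0.28 (edgeR adjusted p = 0.435) and Rpl13a at −0.60 ± 0.26 (adjusted p = 0.464). The 8 regions at other small RNA genes had a median of −0.41 with 0 above 0. The 137 narrow regions had a median of 0.07 with 81 above 0, and the 90 wider ones a median of −0.40 with 5 above 0. Over all features tested the median was 0.01. The medians moved with the scaling, and library totals without TMM factors shifted the median of all features to 0.10. Over the 27 alternatives the snoRNA median ran from −0.66 to −0.05 and the narrow regions' median from −0.54 to 0.51. The snoRNA median was the lower in all of them. The gap was −0.56 here and −0.72 to −0.08 in the alternatives, smallest with at most 3 ends counted per position, where the 2 medians were −0.60 and −0.52. Under that setting the level of a region also varies with library size, and shHMGB1 libraries held more ends. DESeq2 called 13 regions, 12 of them lower in shHMGB1, where it called 60 of all 23886 features, 59 of them lower. Beside Neat1 these included snoRNA regions in Ncl (−0.88, adjusted p = 0.00602), Gas5 (−0.68, 0.0206) and Rpl7a (−0.76, 0.022) and the wide Malat1 region (−0.52, 0.0182). Others lay outside small RNA genes, near Chrm3 (−0.815, 0.00298), near Rimbp3 (−0.61, 0.0192), in Lars2 (−0.58, 0.0259) and in Gphn (−0.57, 0.0446). The region called higher was in Tmcc3 (0.77, 0.0462). It was listed only because its cluster reached 100 ends in 1 library, shHMGB1 0 Gy replicate 2, so this call used values that chose it. No test of the difference between the classes was made.

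By dose, the CPM ratio of shHMGB1 to shCTRL had a median over the snoRNA regions of 1.02 without irradiation (group means of 2 libraries). It was 0.57, 0.58 and 0.97 at 3, 5 and 10 Gy. Over the 132 narrow intronic and intergenic sites it was 1.37, 0.94, 0.80 and 1.42, doses in the same order. Both classes thus stood lowest, relative to shCTRL, at 3 and 5 Gy. The 3 Gy mean of shCTRL holds the smallest library, described above.

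**Figure D4:**
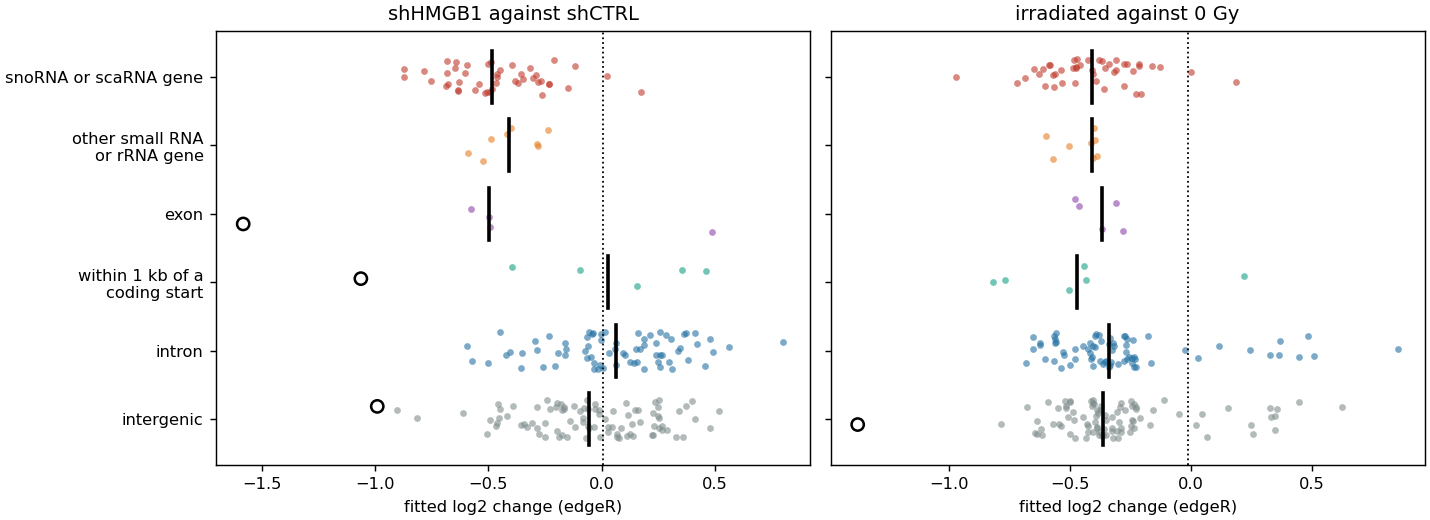
Fitted log2 change of each region by annotation class, for shHMGB1 against shCTRL (left) and irradiated against 0 Gy (right); black bars are class medians, the dotted line is the median of all features tested and open circles mark regions that passed the test. The snoRNA median is −0.49 on the left and −0.41 on the right, and the intron median 0.06 and −0.34.

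The share of ends in dense regions was 13.95 ± 0.902% at 0 Gy (n = 4) and 11.8 ± 2.90% in irradiated libraries (SD, n = 12), with overlapping ranges of 12.9 to 15.1% and 8.67 to 19.4%. In shCTRL the group means were 13.97, 15.3, 13.5 and 9.69% at 0, 3, 5 and 10 Gy. In shHMGB1 they were 13.9, 11.9, 9.85 and 10.6%. With 2 libraries a group, the means at 10 Gy lay below every 0 Gy library in both lines. A fall of a share can come from fewer ends in these regions or from more ends elsewhere, which cannot be told apart in counts relative to the library.

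**Figure D5:**
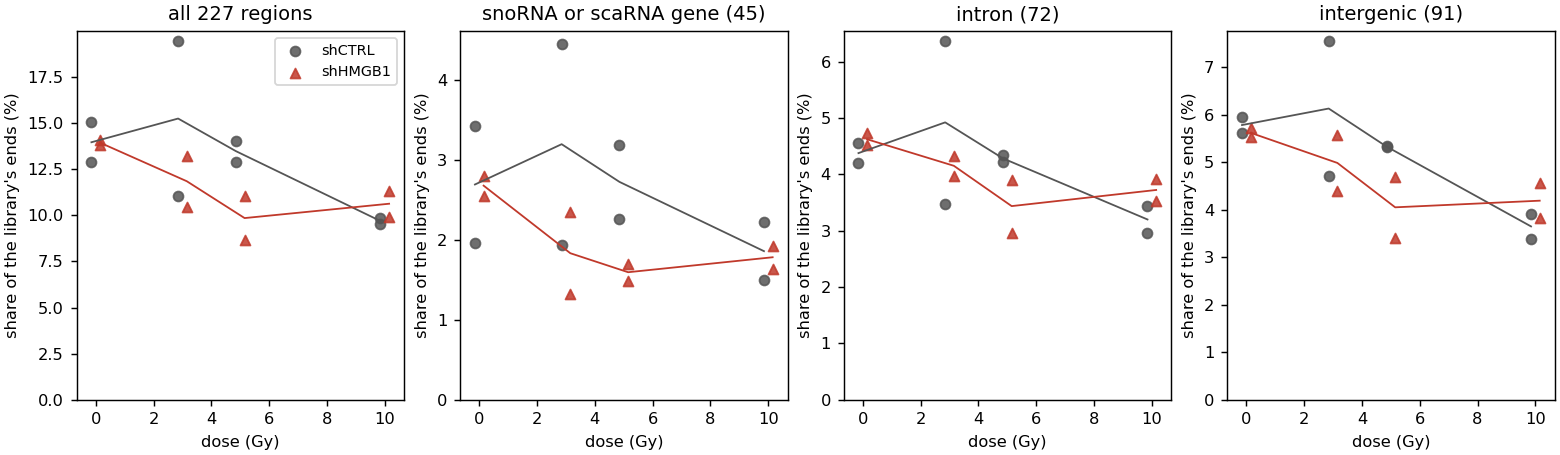
Share of each library's ends (%) in all 227 regions and in the snoRNA, intron and intergenic classes, by dose in Gy; points are libraries and lines join group means of 2. At 10 Gy the 4 libraries hold between 9.52 and 11.3% in all regions, below the 12.9 to 15.1% at 0 Gy.

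Irradiated libraries, the 3 doses averaged and both lines together, were set against 0 Gy in the same fit. Of the 227 regions 1 fell and 0 rose, 0.441%, where 0.00837% of all features passed. The median log2 change of the regions was −0.38, with 26 above 0, against −0.01 over all features. At an unadjusted p under 0.05 there were 65 regions (28.6%), against 7.77% of all features. That number was 30 without shHMGB1 0 Gy replicate 1, 33 without shCTRL 0 Gy replicate 2 and 149 without shCTRL 3 Gy replicate 2. Here too the regions were chosen on the counts tested, so nothing is read from these shares. All classes had medians below 0, from −0.34 for introns to −0.47 within 1 kb of a coding start.

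The region that passed was intergenic, nearest to Rpp21, a subunit of ribonuclease P (chr17:36231299-36231416, 118 bases). At 0 Gy it held 2554 and 416 CPM in shCTRL replicates 1 and 2, and 1226 and 359 in shHMGB1. At 10 Gy it held 658 and 81.6 in shCTRL, and 396 and 75.1 in shHMGB1. Irradiated libraries ran from 75.1 to 1324 CPM with a median of 402 and overlapped with those at 0 Gy. The log2 change was −1.38 ± 0.29 (edgeR adjusted p = 0.0359). In each of the 8 groups replicate 1 held more than replicate 2, with means of 1051 ± 700 and 249.8 ± 175 CPM (SD, n = 8 each). With a replicate block the change was −1.38 (edgeR adjusted p = 0.000908), and with a block within each line −1.39 (4.76e-07). By group means it was lower at 10 Gy than at 0 Gy in both lines, as were 206 of the 227 regions in shCTRL and 215 in shHMGB1. The change was −0.45 without shCTRL 0 Gy replicate 1 (adjusted p = 0.687), −0.79 without shHMGB1 0 Gy replicate 1 (0.778), and −0.73 with at most 3 ends per position (0.323). DESeq2 gave −1.37 with an unadjusted p of 0.0807 and an adjusted p of 0.999.

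A linear trend over the 4 doses, averaged over the lines, was tested likewise. Of the regions 2 fell with dose and 0 rose, 0.881%, where 0.00837% of all features passed, which were these 2 regions. The site near Rpp21 fell by 0.20 ± 0.04 log2 units per Gy (edgeR adjusted p = 0.00407), and by 0.22 with a replicate block (3.56e-06). The slope was −0.12 without shCTRL 0 Gy replicate 1 (adjusted p = 0.39), −0.15 without shHMGB1 0 Gy replicate 1 (0.691), −0.16 without shHMGB1 10 Gy replicate 2 (0.954) and −0.32 without shCTRL 10 Gy replicate 1 (8.79e-05). The other was an intergenic site of 52 bases nearest to Epm2a, which encodes the glycogen phosphatase laforin (chr10:11492102-11492153). It held 132 and 130.1 CPM in shCTRL at 0 Gy and 41.9 and 42.6 at 10 Gy, and 134 and 219 in shHMGB1 at 0 Gy and 74.2 and 55.7 at 10 Gy. In between it held 111 and 114 at 3 Gy and 135 and 103 at 5 Gy in shCTRL. In shHMGB1 it held 249.8 and 47.9 at 3 Gy and 155 and 61.1 at 5 Gy, so the highest library was one at 3 Gy. All 4 libraries at 10 Gy lay below all 4 at 0 Gy. A lower level at 10 Gy is not particular to this site. By group means, 206 of the 227 regions were lower at 10 than at 0 Gy in shCTRL and 215 in shHMGB1. The site near Epm2a fell by 0.17 ± 0.03 log2 units per Gy (edgeR adjusted p = 0.000674). It was listed through 4 libraries whose clusters there reached 100 ends. They were shCTRL 3 Gy replicate 1, shHMGB1 0 Gy replicate 2 and replicate 1 of shHMGB1 at 3 and 5 Gy. At 10 Gy its largest clusters held 27 to 75 ends, so this test used values that chose the site. A fit without those 4 libraries was not made. DESeq2 gave slopes of −0.17 near Epm2a and −0.20 near Rpp21, with an adjusted p of 1 for both (unadjusted 0.000737 and 0.03). Neither call held with at most 3 ends per position (0.598 near Epm2a and 0.218 near Rpp21), or without shCTRL 10 Gy replicate 2 (slopes of −0.16 at both, adjusted p = 0.146 and 0.959).

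Over the whole list the dose trend was shallow and mostly downward. The median slope was −0.06 log2 units per Gy with 6 of 227 above 0, against 0.00 over all features. At an unadjusted p under 0.05 there were 134 regions (59%) against 5.17% of all features. That number was 53 without shHMGB1 10 Gy replicate 2, 66 without shCTRL 0 Gy replicate 2, 72 without shCTRL 10 Gy replicate 2 and up to 168 with another library left out, while the median slope stayed between −0.08 and −0.05. Among the narrow regions 99 of 137 were at that level, and among the wider ones 35 of 90. As for the lines, the regions were chosen on the counts tested and share library totals, so nothing is read from these shares. In CPM, the narrow intronic and intergenic sites at 10 Gy had a median of 0.67 of their 0 Gy level in shCTRL and of 0.72 in shHMGB1. For the snoRNA regions these were 0.70 and 0.68. At 3 Gy the same medians were 1.27 and 0.84 for the narrow sites and 1.26 and 0.68 for the snoRNA regions. The lines thus stood on opposite sides of their 0 Gy levels at 3 Gy, where shCTRL includes its smallest library.

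Whether irradiation acted differently in the lines was tested as the difference of their irradiation changes. No region passed (edgeR), and 0% of all features did. At an unadjusted p under 0.05 there were 8 regions, 3.52%, against 5.27% of all features, and DESeq2 also called 0. The median difference was −0.38, with 21 of 227 above 0, against −0.01 over all features. It was −0.15 with 50 above 0 without shCTRL 3 Gy replicate 2, −0.23 without shCTRL 0 Gy replicate 1, and −0.58 without shCTRL 0 Gy replicate 2 or shCTRL 3 Gy replicate 1. The number at an unadjusted p under 0.05 ran from 2, without shCTRL 3 Gy replicate 2, to 39, without shCTRL 3 Gy replicate 1. With each position counted once it was 0.05 over the 108 regions tested, and with 10 kb tiles −0.01.

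Dense regions overlapped 111 of 20807 protein-coding genes, 0.533%, and lists of 7 to 25 genes are too short to be read against that share. Of 25 highly transcribed genes 2 did, Malat1 and Neat1. None of 10 p53 target genes and none of 14 immediate early genes did. Of 10 long genes known for fragile sites 1 did: Macrod2, with an intronic site of 7 bases at 1952 ± 799 CPM (SD, n = 16). None of 7 blood cell genes held one.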

How the data were processed

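The 16 BLISS libraries were analysed from 1 deposited list of clusters per library. The deposited values are unnormalised counts of break ends, which the authors obtained after removing duplicate molecules, with Trimmomatic 0.32, BWA 0.7.5-r404, UMI-tools, SAMtools and bedtools on mm10, per the submitters' processing notes; settings are not given in the sources used here. Other data types of the series were not analysed here. The members and gene lists were chosen with earlier results of these data known.

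Regions were merged as described in the results. Ends were placed at their listed positions and counted in the regions and in 100 kb tiles of chromosomes 1 to 19 outside them. Libraries held 131430 to 1010888 ends on the main chromosomes, and their size limits precision at low counts. Genes came from GENCODE M21. A region took the first matching class in the order small RNA gene, coding start, exon, intron, intergenic. Counts were fitted with edgeR 4.0.16 (R 4.3.3; glmQLFit and glmQLFTest, TMM, filterByExpr) on 8 group means. A Benjamini-Hochberg adjusted p under 0.05 was the threshold, and the fit shared its estimate of the spread with the tiles. All 227 regions passed the filter. The fit was tested on simulated data. Alternatives included DESeq2 1.42.0, other scalings and tiles, positions counted once or at most 3 times, thinning to the smallest library, a replicate block and each library left out. Python 3.11.15 did the rest.

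Named regions were the 12 densest, the 3 densest of each class, those past a test, those nearest the threshold and the 3 largest seen in 1 library, from which the text gives a selection; other snoRNA hosts, small RNA genes and the sites in Chl1 and Macrod2 were named after their values were seen. A few regions are not reported here. Replicate numbers did not pair the libraries by the rule used: over all features, replicate differences correlated at −0.09 to 0.07 between groups. Over the dense regions alone the median correlation was 0.48 within a line and 0.38 between lines. The main fit held no replicate block, and fits with one are given as alternatives.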

Additional observations from a re-analysis of the deposited data

Results flagged for a closer look

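Of 51 sets of 4 or 8 libraries checked, for the share of ends, 11 of the 12 densest regions and the 5 regions past a test, 5 had 1 library far from the rest (Dixon's test at the 95% level). Chance flags about 1 in 20 such sets. In 3 of the 5 it was the smallest library, shCTRL 3 Gy replicate 2, high among the 8 shCTRL libraries: 14411 CPM at the Slc36a1 site with the next at 7668, 10135 near Shroom3 with the next at 5669, and 5798 near Gm17542 with the next at 3461. Among the 4 libraries at 0 Gy, shCTRL replicate 2 was high near Shroom3, at 5669 CPM with the next at 4394. Near Epm2a shHMGB1 replicate 2 was high at 219 CPM with the next at 134. The cause was not tested.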

How the results depend on the processing

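The list depends on its threshold: clusters of at least 50, 200 or 1000 ends gave 393, 137 and 25 regions. Requiring 1000 lowered the share of ends to 6.36%, and counting each position once to 1.68%. With each library left out, the number ran from 217 to 227 and the share from 11.9% to 12.6%.

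Regions called between the lines (3) numbered 8 with each position counted once, 1 with at most 3 ends per position, 18 with 10 kb tiles (16 higher, 2 lower), 1 with libraries thinned to the smallest and 13 with DESeq2 (1 higher, 12 lower). Over all features the calls were, in the same order, 26 of 23662, 4 of 23849, 43 of 14585, 3 of 2689 and 60 of 23886. With each position counted once 108 regions were tested, and with at most 3 ends per position 189. Leaving out single libraries gave 1 to 22, with 22 without shHMGB1 3 Gy replicate 1, 17 without shCTRL 3 Gy replicate 1, and 1 without any of replicate 1 of shCTRL 5 or 10 Gy and replicate 2 of shHMGB1 0, 3, 5 or 10 Gy. Over all features the fits with single libraries left out called 3 to 119. They called 119 of 23956 without shHMGB1 3 Gy replicate 1 and 77 of 23952 without shCTRL 3 Gy replicate 1. With 10 kb tiles 14585 features were tested and the regions' median rose to 0.30. With each position counted once 0 of 108 regions had a change above 0, and with at most 3 ends per position 2 of 189. Counted once, positions in dense regions made up 3.69% of all positions in the smallest library and 1.19% in the largest. shHMGB1 libraries held more ends, so under these settings the lines and library size cannot be told apart. For irradiation (1) there were 0 calls with each position counted once, at most 3 ends per position, thinning or DESeq2, and 0 to 3 with single libraries left out: 3 without shCTRL 3 Gy replicate 2 or shHMGB1 3 Gy replicate 1, and 0 without replicate 2 of shCTRL 5 or 10 Gy or of shHMGB1 3, 5 or 10 Gy, or shHMGB1 0 Gy replicate 1. For the dose trend (2) there were 0 with each position counted once or at most 3 ends per position, 1 with DESeq2 (another region, near Gm8797, −0.11 log2 units per Gy, adjusted p = 0.0127), and 0 to 6 with single libraries left out: 6 without shCTRL 3 Gy replicate 1, 4 without shHMGB1 3 Gy replicate 2, 1 without shHMGB1 0 Gy replicate 1, and 0 without replicate 2 of 10 Gy in either line. The causes were not tested. Over all features the fits with single libraries left out called 0 to 10 for irradiation and 0 to 11 for the dose trend. The difference of irradiation changes gave 0 throughout.

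The replicate block gave 3, 1, 3 and 0 calls for lines, irradiation, dose and their difference. A replicate block within each line gave 12, 3, 7 and 0. Over all 23886 features the calls were 14, 2, 3 and 0 with the first block and 78, 9, 10 and 0 with the other. Over the dense regions alone, replicate differences of 2 groups correlated with a median of 0.48 within a line (over 0.1 in 11 of 12 pairs) and 0.38 between lines (14 of 16), so the numbers are a hint of structure and not a stated pairing. No called region changed sign under any alternative. The Neat1 call held in 25 of 27 alternatives, that near Bmp7 in 16 of 26, near Haao in 13 of 25, near Rpp21 in 16 of 27 (irradiation) and 20 of 27 (dose), and near Epm2a in 22 of 27. These alternatives reuse the counts that chose the regions, so the numbers describe the dependence on settings and are no added evidence for the calls.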

Other observations

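Replicate 1 held more CPM than replicate 2 in all 8 groups at 7 of the 227 regions, near Serpinb8, near Axin2, in Jarid2, in Cmss1, near Rpp21, near Plcl2 and at Gm26561, and in 0 of 8 groups at 2, near Cab39 and in Fras1. They were counted after the values were seen. Of the 227 regions 153 had replicate 1 higher in 3 to 5 groups.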
